A study of Homo sapiens with 6 samples.

Results

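The replication fork machinery is the set of proteins that opens and copies DNA in S phase. Here it was taken as 44 genes, chosen by symbol and role, of the 60656 genes in the count table. They cover origin recognition, helicase assembly and firing, the 3 replicative polymerases, the sliding clamp and its loader, Okazaki fragment maturation, the single-strand binding protein RPA, fork protection and the chromatin assembly factor CAF-1. The MCM helicase subunits were left out of the set. RNA was measured in parental ZR-75-1 cells, an established oestrogen receptor-positive luminal breast cancer line, grown in serum-containing RPMI medium. One group received 500 nM abemaciclib, a CDK4/6 inhibitor, and the other an equal volume of its solvent DMSO, each for 4 days with 3 libraries a group. The study describes its cell line RNA libraries as independent cultures. The study asked how CDK4/6 inhibition, acting through hypophosphorylated Rb, alters transcription. Libraries from cells lacking RB1 were not analysed here.

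A replication origin is marked by the origin recognition complex and loaded with inactive MCM helicase in G1. At the onset of S phase the kinases CDC7–DBF4 and CDK2 convert it to an active helicase by adding CDC45 and GINS. Polymerase alpha with primase then lays down primers, the clamp loader RFC places PCNA around DNA, polymerase epsilon copies the leading strand and polymerase delta the lagging strand, and FEN1, DNA2 and LIG1 turn Okazaki fragments into a continuous strand. Many of these genes are textbook targets of the E2F transcription factors, which Rb holds in check while it is hypophosphorylated.

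The libraries held between 3317860 and 4013156 counts. Values are given as CPM, which are counts relative to the TMM-scaled total of each library over the genes tested. The limit set by a count of 0 is 3 counts, or 0.740 to 0.909 CPM depending on the library. All 6 luminal markers examined (ESR1, GATA3, KRT8, KRT18, KRT19 and EPCAM) were detected in every library. Of these, ESR1 (log2 fold change 0.82, adjusted P = 2.92e-07) and KRT19 (0.45, adjusted P = 0.000207) were called higher with abemaciclib and KRT18 lower (−0.34, adjusted P = 0.00515). The markers of other cells PTPRC, CD3E, COL1A2, PECAM1, KRT5 and KRT14 had 0 counts in all 6 libraries, and COL1A1 was at 10.4 to 15.8 CPM with DMSO and 10.1 to 15.4 CPM with abemaciclib. Abemaciclib replicate 3 stood furthest from its group (chi-square per degree of freedom of 6.82 and 7.27 against the others, with 2.82 to 4.16 between the remaining pairs of a group), and without it 20 fork genes were called lower and 1 higher.

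Abemaciclib lowered 21 of the 42 fork genes with enough counts to be tested and raised 1, POLE3. A gene was called at an adjusted P under 0.05 in edgeR's quasi-likelihood test, with adjustment over all 10863 genes tested. Over all of those genes, 13.3% were called lower and 12.5% higher. Of the 21, 15 had a log2 fold change of −1 or less, and 5.94% of all genes tested were both called lower and changed to that extent. The median log2 fold change of the tested fork genes was −0.77, with a range from −4.01 to 0.53, and 33 of the 42 values were negative. The median over all genes tested was −0.0018. The 21 genes called lower were the same 21 in which every abemaciclib library lay below every DMSO library, an arrangement that 20.1% of all genes tested showed. In POLE3 and GINS4 the 3 treated libraries were all above the 3 controls, as in 19.1% of all genes tested. The groups overlapped in the other 19.

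**Figure D1:**
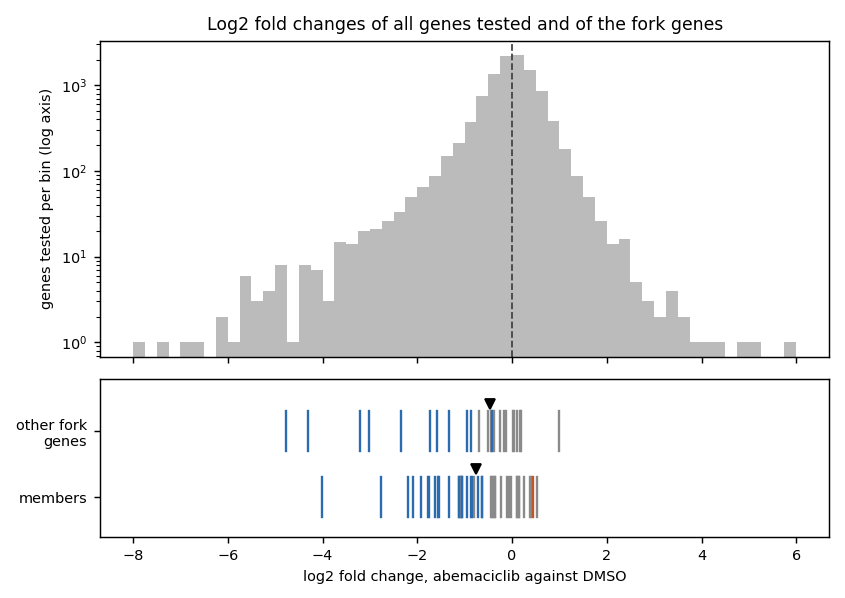
Upper panel: number of genes tested per bin of log2 fold change, abemaciclib against DMSO, on a log axis, with the median of all genes tested dashed. Lower panel: each tested member and each of the 24 other tested fork genes as a line, blue where called lower, orange where called higher and grey otherwise, with triangles at the medians of −0.77 and −0.47. Both lists extend far to the left of the bulk of genes and little to the right.

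The share of all counts that fell on the 44 genes was 0.149%, 0.156% and 0.141% in the DMSO libraries and 0.112%, 0.106% and 0.112% in the abemaciclib libraries. The group means were 0.149% ± 0.0077 and 0.110% ± 0.0031 (SD, n = 3), with no overlap between the groups (two-sided exact permutation test, P = 0.1, the smallest value that 3 against 3 libraries allow). Abundant genes weigh most in this share. Among them POLE3, RFC1 and POLD2 (mean counts 634.7, 563.2 and 510.8) were not called lower, while RPA3 and DBF4 (285.8 and 278) were. Within each abemaciclib library the median log2 difference of the tested members from the mean of the DMSO libraries was −0.66, −0.77 and −0.73. The 3 treated libraries were thus close to each other as a set, although single genes differed between them. In bulk RNA, fewer cells in S phase and less transcript in each cell cannot be told apart.

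**Figure D2:**
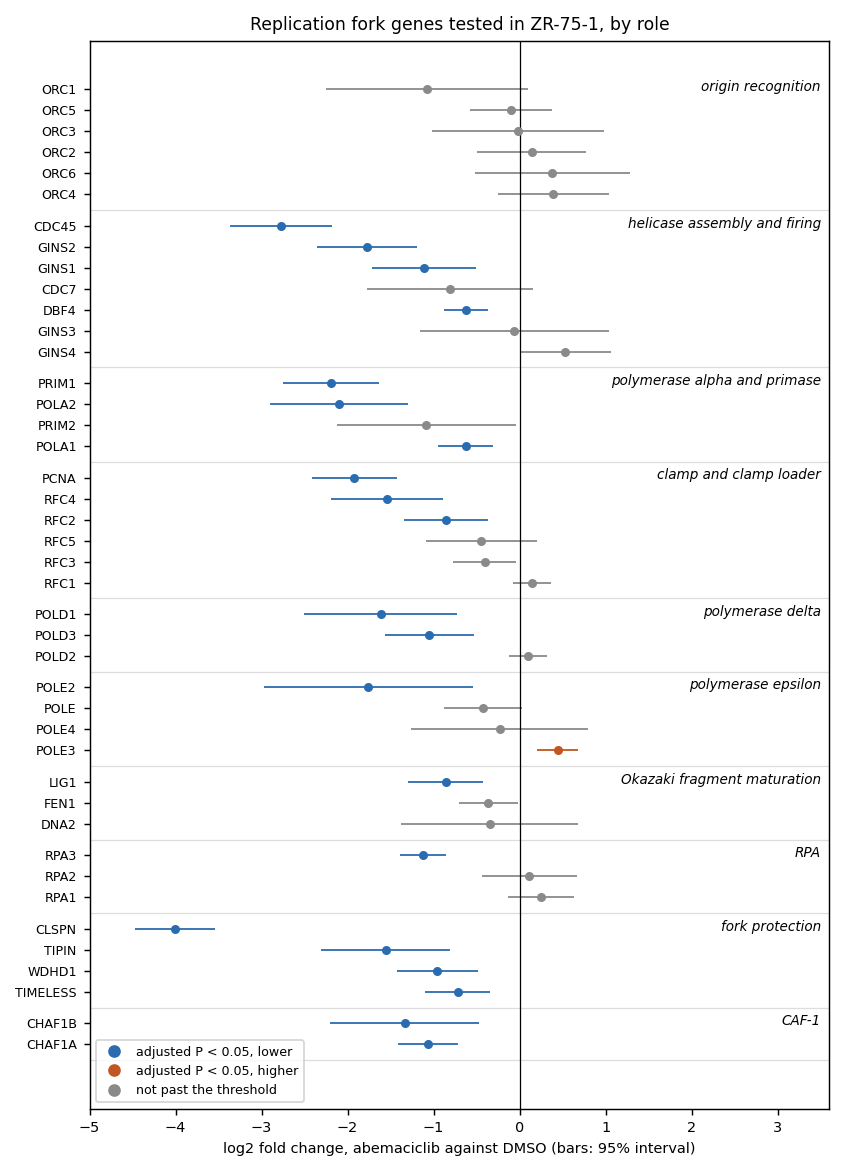
Log2 fold change of each of the 42 tested members, abemaciclib against DMSO, with its 95% interval, grouped by role. Blue marks genes called lower, orange the gene called higher and grey the 20 not called. All fork protection and CAF-1 genes are blue, all origin recognition genes are grey.

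Promoter sequence was examined because E2F sites are a known feature of S-phase promoters. The window ran from 250 bases before to 50 after the annotated start, in the RefSeq annotation of GRCh38.p14. A window was available for 39 of the 44 genes, which leaves out DNA2, GINS4, POLD3, RPA2 and RPA3. It was searched on both strands for exact matches to 4 E2F-type words, TTTCCCGC, TTTCGCGC, TTTGCCGC and TTTGGCGC, which can overlap across strands. At least 1 match was found in 15 of the 39 genes (38.5%), against 3.99% of the 27305 genes with a window and 7.04% of the 8589 genes with a window that were tested. Among the tested genes called lower the share was 12.2%. By window, the share was 30.0% of the members' 50 windows and 3.31% of all 35116.

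Within the fork set, 9 of the 19 genes called lower with a window held a match (47.4%), as did 6 of the 18 tested genes with a window that were not called lower (33.3%). The words therefore occurred on both sides of the call. The called genes with a match were CLSPN, POLA2, PCNA, GINS2, POLE2, TIPIN, GINS1, LIG1 and POLA1, and the others were CDC7, POLE, RFC3, POLE4, GINS3 and ORC3. No match was found in CDC45 and PRIM1, which had the largest falls after CLSPN, or in ORC1. TIPIN and CDC7 each held 2 matches in 1 window. Those of TIPIN overlapped each other on opposite strands (−66 to −59 and −62 to −55). Those of CDC7 were apart (−68 to −61 and −34 to −27). The CHR element TTTGAA, known from genes that peak late in the cell cycle, was present in DBF4 and POLE3 alone (5.13% of the 39 genes), against 18.2% of all genes with a window, 13.0% of the tested genes with one and 19.1% of those called lower. A match is a description of letters in the window, and neither base composition nor binding was examined here.

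The promoters shown are those of the genes with an E2F-type match among the members whose values are given library by library below, in order of their fall. Each is written 5′ to 3′ on the strand of its gene, with the match in capitals. CLSPN lies on the minus strand (chr1:35769929-35770228), with its match across the start site (−5 to 3, counted from the start). PCNA is on the minus strand (chr20:5126573-5126872), with the match at −59 to −52. The POLE2 window (chr14:49688165-49688464, minus strand) has its match at −5 to 3, and the LIG1 window (chr19:48170295-48170594, minus strand) at −114 to −107. POLA1 lies on the plus strand (chrX:24693668-24693967), with its match at −137 to −130. In all except LIG1 the capitals read as the reverse complement of the word.
CLSPN: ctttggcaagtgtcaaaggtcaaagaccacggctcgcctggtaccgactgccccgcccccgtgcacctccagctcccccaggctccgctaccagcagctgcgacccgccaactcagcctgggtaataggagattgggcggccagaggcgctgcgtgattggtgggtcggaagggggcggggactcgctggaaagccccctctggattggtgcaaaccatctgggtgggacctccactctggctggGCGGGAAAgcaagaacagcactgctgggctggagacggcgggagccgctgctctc
PCNA: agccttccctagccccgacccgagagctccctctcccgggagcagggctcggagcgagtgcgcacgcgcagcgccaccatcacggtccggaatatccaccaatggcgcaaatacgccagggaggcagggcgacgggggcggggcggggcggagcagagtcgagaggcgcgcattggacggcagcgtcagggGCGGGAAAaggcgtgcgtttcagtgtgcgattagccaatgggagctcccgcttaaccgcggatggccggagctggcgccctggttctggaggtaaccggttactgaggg
POLE2: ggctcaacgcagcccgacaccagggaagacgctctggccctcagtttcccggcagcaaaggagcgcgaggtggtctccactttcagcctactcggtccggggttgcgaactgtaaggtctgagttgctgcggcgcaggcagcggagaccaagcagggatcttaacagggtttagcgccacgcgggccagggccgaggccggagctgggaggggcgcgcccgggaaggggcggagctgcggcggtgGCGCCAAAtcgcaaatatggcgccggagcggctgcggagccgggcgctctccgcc
LIG1: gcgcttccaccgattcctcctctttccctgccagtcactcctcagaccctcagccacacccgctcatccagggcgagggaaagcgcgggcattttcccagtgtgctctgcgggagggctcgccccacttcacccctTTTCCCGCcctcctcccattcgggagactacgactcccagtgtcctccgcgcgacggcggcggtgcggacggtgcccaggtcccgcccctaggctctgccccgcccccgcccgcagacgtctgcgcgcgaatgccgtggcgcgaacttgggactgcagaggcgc
POLA1: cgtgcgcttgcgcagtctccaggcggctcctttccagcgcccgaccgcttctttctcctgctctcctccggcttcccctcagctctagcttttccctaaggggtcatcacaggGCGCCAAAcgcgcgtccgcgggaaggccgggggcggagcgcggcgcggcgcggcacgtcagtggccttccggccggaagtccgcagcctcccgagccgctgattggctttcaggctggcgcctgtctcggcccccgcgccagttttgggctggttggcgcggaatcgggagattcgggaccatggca

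None of the 6 origin recognition genes was called in either direction, and their median log2 fold change was 0.06. ORC1 is the subunit of the complex known to be E2F-regulated and to fluctuate through the cell cycle. It was at 6.09, 8.32 and 2.12 CPM with DMSO and at 5.14, 1.23 and 1.62 CPM with abemaciclib. The groups overlapped, since the lowest DMSO library lay below the highest treated one, and the log2 fold change of −1.08 (SE 0.571, adjusted P = 0.176) had an interval from −2.25 to 0.09. Without abemaciclib replicate 1, the treated library with the highest value, ORC1 was called lower (−1.93, adjusted P = 0.0417). ORC4, with the largest rise of the complex, was at 6.38, 8.91 and 11.5 CPM against 10.9, 12.6 and 11.6 CPM. Here too the groups overlapped (log2 fold change 0.39, SE 0.313, adjusted P = 0.398). The other subunits had log2 fold changes of 0.14 for ORC2, −0.02 for ORC3, −0.10 for ORC5 and 0.38 for ORC6, with adjusted P between 0.585 and 0.984. The interval lay within ±1 for ORC2 and ORC5 only.

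Helicase assembly and firing was uneven, with 4 of 7 genes called lower. CDC45, the subunit that joins MCM and GINS in the active helicase, was at 34.8, 24.4 and 24.5 CPM with DMSO and at 3.63, 5.18 and 3.24 CPM with abemaciclib. The treated libraries lay far below the controls, a fall of 6.84-fold (log2 fold change −2.77, SE 0.291, adjusted P = 1.91e-08). Of the 4 GINS subunits, which form 1 heterotetramer, GINS2 fell from a mean of 24.3 to 6.98 CPM (log2 fold change −1.78, adjusted P = 1.86e-05) and GINS1 from 18.0 to 8.23 CPM (−1.11, adjusted P = 0.00539). GINS3 was not called, at 3.35 and 3.26 CPM. GINS4 was at 18.0, 19.9 and 8.48 CPM with DMSO and at 21.5, 24.7 and 20.8 CPM with abemaciclib. Its treated libraries were all above its controls, yet the log2 fold change of 0.53 (SE 0.258) did not pass the threshold (adjusted P = 0.138), with DMSO replicate 3 well below replicates 1 and 2. DBF4, the activating subunit of the CDC7 kinase, fell from 96.5 to 62.6 CPM (log2 fold change −0.62, adjusted P = 0.000456). CDC7 itself was at 6.79 and 3.84 CPM and was not called (−0.81, adjusted P = 0.224).

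Polymerase alpha and its primase make the RNA–DNA primer of every new strand, and 3 of the 4 subunits were called lower. PRIM1, the catalytic primase subunit, was at 32.8, 27.6 and 23.3 CPM with DMSO and at 7.26, 6.91 and 4.05 CPM with abemaciclib. The groups were well apart, with a fall of 4.58-fold (log2 fold change −2.20, SE 0.273, adjusted P = 3.7e-07). POLA2, the accessory subunit, fell from a mean of 13.9 to 3.18 CPM (−2.10, adjusted P = 0.000164). POLA1, the catalytic polymerase, fell least: it was at 59.2, 49.6 and 54.8 CPM against 36.9, 35.3 and 33.8 CPM. The treated libraries were close together and below every control (log2 fold change −0.63, SE 0.157, adjusted P = 0.00345). PRIM2, the large primase subunit, was at 5.74 and 2.66 CPM, with a log2 fold change of −1.08 that was not called (adjusted P = 0.123) and an interval from −2.13 to −0.04.

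The sliding clamp fell and its loader changed in part. PCNA, the ring that tethers the polymerases to DNA, was at 44.7, 46.3 and 38.2 CPM with DMSO and at 17.9, 8.88 and 7.84 CPM with abemaciclib. All treated libraries lay below the controls, and abemaciclib replicate 1 held more than replicates 2 and 3. The means were 43.1 ± 4.32 and 11.5 ± 5.50 CPM (SD, n = 3), a fall of 3.78-fold (log2 fold change −1.92, SE 0.241, edgeR adjusted P = 4.5e-07). RFC1, the large loader subunit found in the canonical complex, was at 151, 147 and 158 CPM against 185, 154 and 163 CPM. Its groups overlapped and the interval of its log2 fold change (0.14) ran from −0.08 to 0.36. Of the small loader subunits, RFC4 fell from 16.6 to 5.66 CPM (−1.54, adjusted P = 0.000504) and RFC2 from 24.5 to 13.6 CPM (−0.85, adjusted P = 0.00834). RFC3 (−0.41, adjusted P = 0.0923) and RFC5 (−0.45, adjusted P = 0.327) were not called. The results for RFC2 and RFC3 turned on 1 library: RFC2 was not called without DMSO replicate 2 (−0.64, adjusted P = 0.0995), and RFC3 was called lower without abemaciclib replicate 3 (−0.72, adjusted P = 0.000604), in which it was at 65.1 CPM against 37.8 and 37.7 CPM in the other treated libraries.

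**Figure D3:**
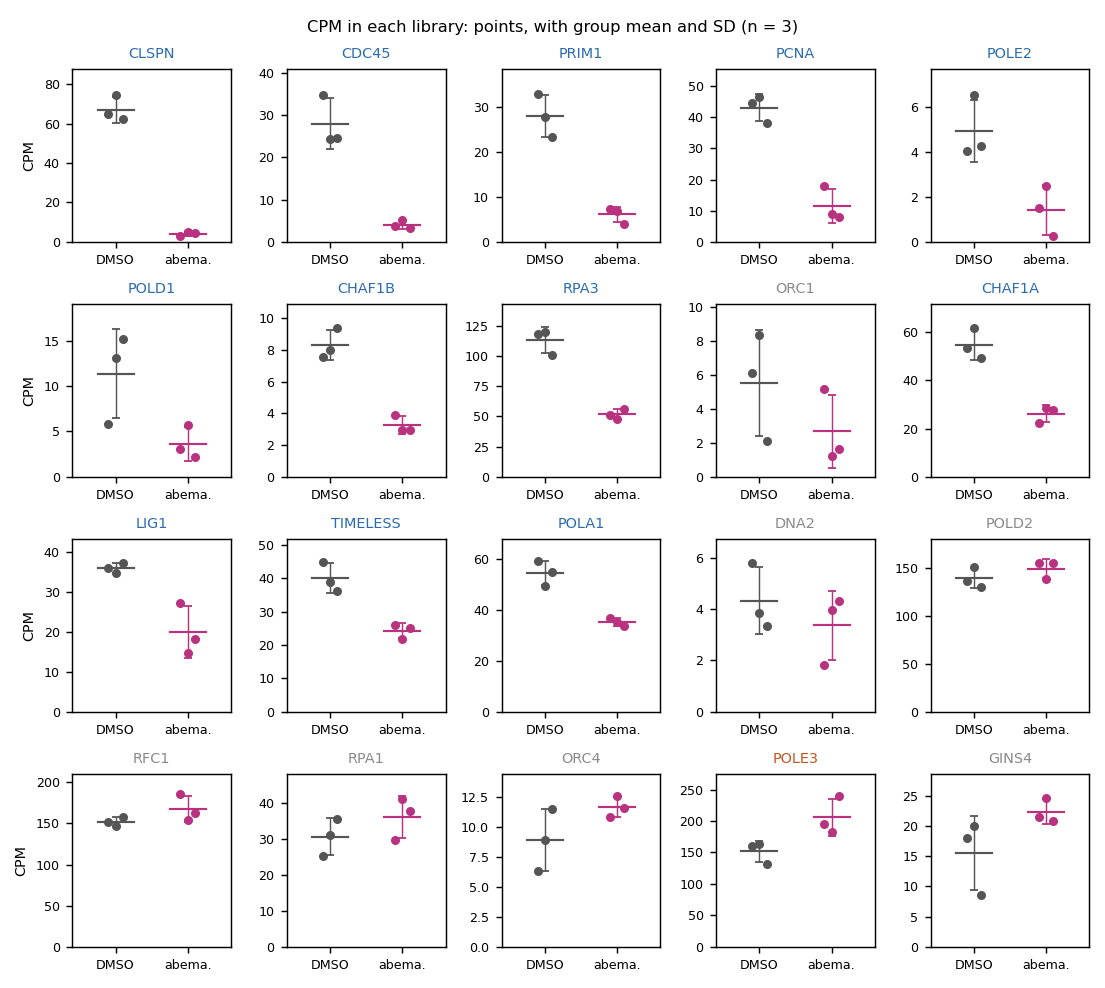
CPM of 20 members in each library (points), with the group mean and SD (bars, n = 3), in order of log2 fold change from CLSPN to GINS4. Titles are blue for genes called lower, orange for the gene called higher and grey for genes not called. Each vertical axis starts at 0 and has its own scale, and the groups separate fully in every blue panel.

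The lagging-strand enzyme polymerase delta fell in its catalytic subunit and in 1 accessory subunit. POLD1, the catalytic subunit, was at 5.80, 13.1 and 15.1 CPM with DMSO and at 3.03, 5.67 and 2.16 CPM with abemaciclib. The highest treated library lay just under the lowest control (log2 fold change −1.62, SE 0.432, adjusted P = 0.00587), and without DMSO replicate 3 the call was lost (−1.36, adjusted P = 0.0569). POLD3, which binds PCNA, fell from a mean of 21.6 to 10.4 CPM (−1.05, adjusted P = 0.00247). POLD2, the accessory subunit that bridges to POLD3, was at 137, 151.5 and 131 CPM against 155.5, 138 and 155 CPM. The groups overlapped and the interval of the log2 fold change (0.10) ran from −0.13 to 0.32. POLD4, the smallest subunit, was not tested, with 2, 0 and 8 counts in the DMSO libraries and 9, 12 and 4 counts in the treated libraries.

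Polymerase epsilon was the complex with a call in each direction. POLE2, its essential accessory subunit, was at 4.06, 6.54 and 4.24 CPM with DMSO and at 1.51, 2.47 and 0.27 CPM with abemaciclib. The treated libraries were all lower (log2 fold change −1.76, SE 0.594, adjusted P = 0.0285), on a mean of 11.0 counts per library over both groups. Abemaciclib replicate 3 held 1 count of POLE2, under the limit of 3. POLE3, a small histone-fold subunit that also belongs to the CHRAC chromatin remodeller, was at 159.8, 163 and 132 CPM against 195, 182 and 239.7 CPM. All treated libraries were higher, with means of 152 ± 16.8 and 206 ± 30.1 CPM (SD, n = 3) and a log2 fold change of 0.44 (SE 0.116, edgeR adjusted P = 0.00546). The catalytic subunit POLE was at 28.7 and 21.4 CPM (−0.43, adjusted P = 0.163), and POLE4, the histone-fold partner of POLE3, was at 4.26 and 3.61 CPM (−0.23, adjusted P = 0.787). The POLE2 call was lost with DESeq2 (adjusted P = 0.0854) and without DMSO replicate 1, 2 or 3 or abemaciclib replicate 1 or 3 (log2 fold change −1.89, −1.51, −1.86, −1.79 and −1.28, adjusted P from 0.056 to 0.156). The POLE3 call was lost without DMSO replicate 3 (0.35, adjusted P = 0.0532).

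Among the Okazaki fragment genes, LIG1 alone was called. LIG1, the ligase that seals the fragments, was at 36.0, 34.8 and 37.3 CPM with DMSO and at 27.2, 14.6 and 18.1 CPM with abemaciclib. The controls were tight and the treated libraries spread below them (log2 fold change −0.86, SE 0.213, adjusted P = 0.0031). DNA2, a nuclease and helicase for long flaps, was at 5.80, 3.86 and 3.33 CPM against 1.82, 3.95 and 4.32 CPM, and the groups overlapped (−0.35, SE 0.5, adjusted P = 0.669). FEN1, the main flap endonuclease, was at 49.7 and 38.5 CPM and was not called (−0.37, adjusted P = 0.112), but it was called lower without DMSO replicate 3 (−0.50, adjusted P = 0.0392). RNASEH2A, the catalytic subunit of the enzyme that removes ribonucleotides, was not tested, with 3, 1 and 2 counts against 3, 2 and 6 counts.

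RPA coats single-stranded DNA as a trimer, and only its smallest subunit was called. RPA3 was at 118, 119.7 and 101 CPM with DMSO and at 51.1, 47.9 and 56.5 CPM with abemaciclib. Both groups were tight and far apart (log2 fold change −1.12, SE 0.131, adjusted P = 1.15e-07). RPA1, the large subunit that holds most of the DNA-binding folds, was at 25.2, 31.2 and 35.4 CPM against 29.6, 41.0 and 37.8 CPM. Its groups overlapped (0.24, SE 0.188, adjusted P = 0.378), as did those of RPA2 (means of 15.2 and 16.4 CPM, 0.11, adjusted P = 0.811).

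All 4 fork protection genes were called lower, and CLSPN had the largest fall of the 42. CLSPN encodes claspin, the adaptor that lets the kinase ATR activate CHK1 and that paces the fork. It was at 64.7, 74.6 and 62.1 CPM with DMSO and at 2.72, 5.18 and 4.32 CPM with abemaciclib. The means were 67.1 ± 6.58 and 4.08 ± 1.25 CPM (SD, n = 3), a fall of 16.1-fold (log2 fold change −4.01, SE 0.229, edgeR adjusted P = 4.73e-14), and 6.22% of the DMSO level was left. TIMELESS, which travels with the helicase, was at 45.0, 38.9 and 36.0 CPM against 26.02, 21.7 and 25.1 CPM. Its groups were apart but its fall was the smallest of the 4 (−0.72, SE 0.183, adjusted P = 0.00396). TIPIN, its binding partner, fell from a mean of 14.7 to 5.06 CPM (−1.56, adjusted P = 0.00198), and WDHD1 (AND-1), which links polymerase alpha to the helicase, fell from 25.2 to 13.0 CPM (−0.96, adjusted P = 0.00254).

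Both CAF-1 subunits in the set, which place histones H3 and H4 on new DNA, were called lower. CHAF1A was at 53.4, 61.8 and 49.1 CPM with DMSO and at 22.1, 28.6 and 27.6 CPM with abemaciclib. CHAF1B was at 7.54, 8.02 and 9.39 CPM against 3.93, 2.96 and 2.97 CPM. Neither gene's groups overlapped, with log2 fold changes of −1.06 (SE 0.172, adjusted P = 2.32e-05) and −1.34 (SE 0.424, adjusted P = 0.0197). The CHAF1B call was lost without DMSO replicate 2 or 3 or abemaciclib replicate 2 or 3 (−1.36, −1.24, −1.26 and −1.27, adjusted P from 0.051 to 0.0723). RBBP4, the histone-binding subunit that CAF-1 shares with other complexes and that is not in the set, was at 78.3 and 80.0 CPM (0.03, adjusted P = 0.896).

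Since a call in 1 subunit and none in another does not show that they differ, the log2 ratio of 14 pairs of members from the same complex was compared in each library, with 0.5 CPM added to each value. In 4 pairs every abemaciclib ratio lay below every DMSO ratio. The POLA2/POLA1 ratio was −1.88, −1.89 and −2.03 with DMSO and −3.54, −2.65 and −4.01 with abemaciclib, a difference of −1.47 (SE 0.401). The GINS2/GINS3 ratio differed by −1.75 (SE 0.676), the POLE2/POLE3 ratio by −2.12 (SE 0.718) and the POLD1/POLD4 ratio by −2.67 (SE 0.793). POLE2 was at 1 count in abemaciclib replicate 3, and POLD4 was at or near the limit of 3 counts in several libraries. Counts were also low for GINS3 (17, 7 and 10 with DMSO, 15, 7 and 13 with abemaciclib) and for POLA2 with abemaciclib (9, 21 and 6). Each of the 4 had P = 0.1 in the two-sided exact permutation test, the smallest that 3 against 3 libraries allow, and 0.35 after adjustment over the 14 pairs, so none can be called. With 1 library left out, the difference was −1.16 (without abemaciclib replicate 1) to −2.27 for GINS2/GINS3, −1.16 to −1.84 for POLA2/POLA1, −1.45 (without abemaciclib replicate 3) to −2.62 for POLE2/POLE3 and −1.91 (without DMSO replicate 2) to −3.08 for POLD1/POLD4. Groups overlapped in the other 10, where the difference ran from −1.36 for ORC1/ORC4 to 0.82 for TIMELESS/TIPIN. It was −1.19 for PRIM1/PRIM2, −0.58 for RFC3/RFC1, 0.53 for FEN1/LIG1, 0.16 for ORC6/ORC2, 0.03 for CDC7/DBF4, −0.19 for POLE/POLE4, −0.20 for RPA2/RPA1 and 0.17 for CHAF1A/CHAF1B.

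**Figure D4:**
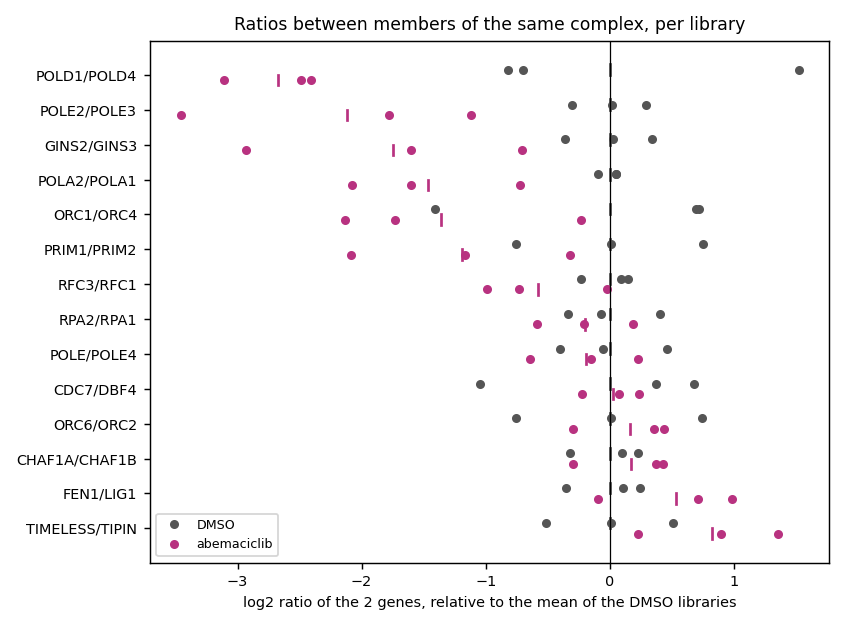
Log2 ratio of the genes of each pair in each library, relative to the mean ratio of the DMSO libraries, for 14 pairs within a complex. Points are libraries and short bars are group means. The abemaciclib points lie wholly to the left of the DMSO points in POLD1/POLD4, POLE2/POLE3, GINS2/GINS3 and POLA2/POLA1, and the groups overlap in the other 10.

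A further 6 ratios were chosen after the values were seen and are given as a description, with no test. The RPA3/RPA1 ratio was 2.21, 1.92 and 1.49 with DMSO and 0.78, 0.22 and 0.57 with abemaciclib, a difference of −1.35 (SE 0.263) on the log2 scale. The POLD3/POLD2 ratio differed by −1.13 (SE 0.198), RFC4/RFC1 by −1.61 (SE 0.275) and PCNA/RFC1 by −2.08 (SE 0.307). CDC45/GINS4 differed by −3.26 (SE 0.362) and CLSPN/TIMELESS by −3.21 (SE 0.334). In each of these the treated libraries lay below all controls.

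The 20 members that were not called differed in what the data could show. For 9 of them (ORC2, ORC5, RFC1, RFC3, POLD2, POLE, FEN1, RPA1 and RPA2) the 95% interval of the log2 fold change lay within ±1. Those of RFC3 (−0.77 to −0.04) and FEN1 (−0.71 to −0.02) lay wholly below 0. For 8 (ORC1, ORC3, GINS3, CDC7, PRIM2, RFC5, POLE4 and DNA2) the interval reached −1, so a fall of that size was neither shown nor excluded at this depth. In ORC4, ORC6 and GINS4 the interval reached 1 but not −1 (upper ends 1.03, 1.28 and 1.06). The mean count per library was 11.0 to 285.8 in the genes called lower, with a median of 58.3, and 11.5 to 563.2 in those not called, with a median of 44.9.

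**Figure D5:**
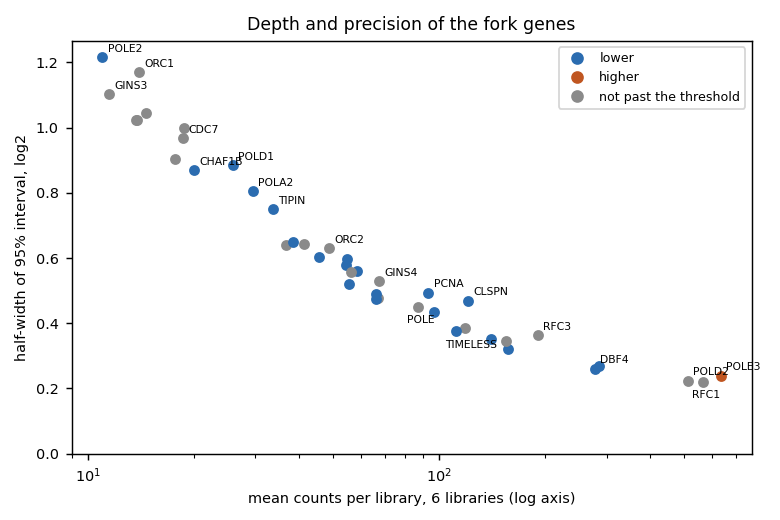
Precision of each tested member: the half-width of its 95% interval (log2) against its mean count per library over the 6 libraries (log axis), coloured by call, with some genes labelled. The interval narrows from POLE2 with 11.0 counts to RFC1 and POLE3 with over 500 counts, and called and uncalled genes are found along the whole range.

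The 44 genes lie on 21 chromosomes, with at most 5 on 1 of them (chromosome 7). In GENCODE on GRCh38, CLSPN is at chr1:35720218-35769978, PCNA at chr20:5114953-5126626 and RPA3 at chr7:7636518-7718607, all on the minus strand. Because the libraries read the 3′ end of each mRNA, the last 400 exonic bases of each gene were compared with the exons of other genes. They overlapped another gene on the opposite strand in ORC4, CDC45, GINS2 and GINS4 and on the same strand in PRIM1, POLD1 and RNASEH2A. Beside PRIM1 lies NACA, with a mean of 1242 counts in DMSO and 1406 in abemaciclib libraries, and opposite GINS2 lies GSE1, with 1537 and 1690 counts. Opposite ORC4 lies ACVR2A, with a mean of 22 counts in DMSO and 19 in abemaciclib libraries, against 30 and 43.3 for ORC4 itself. The values of PRIM1, GINS2 and ORC4 are uncertain to the extent that reads are shared. The overlapping genes of CDC45, GINS4, POLD1 and RNASEH2A had a mean of 0 counts in both groups. Named pseudogenes exist for 11 members, PCNA and RPA3 among them, and their counts came to a mean of at most 1 per DMSO library. How reads of near-identical copies were split was not tested. Without these 7 genes, 17 of 36 tested members were called lower and 1 was called higher, and the median log2 fold change was −0.67.

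A second list of 26 fork genes outside the set was written from general knowledge, with earlier results of these data known. It gave 24 that could be tested, of which 11 were called lower and none higher. Over all genes tested, 13.3% were called lower and 12.5% higher. In edgeR, 1 of the 24 was higher at an unadjusted P under 0.05, as were 1940 of all 10863 genes tested. None of the list was called higher with DESeq2. The median log2 fold change of the 24 was −0.47. The largest falls were those of PCLAF, TOP2A and MCM10. PCLAF, a small PCNA-binding protein, was at 122, 119 and 117 CPM with DMSO and at 3.03, 4.44 and 5.40 CPM with abemaciclib (log2 fold change −4.77, adjusted P = 2.13e-17). TOP2A, the topoisomerase that untangles daughter DNA, was at 1963, 2029 and 2112 CPM against 99.2, 106 and 104 CPM (−4.30, adjusted P = 7.93e-23). MCM10, which helps activate the helicase, fell from a mean of 44.3 to 4.85 CPM (−3.21, adjusted P = 9.64e-11). The controls and treated libraries of all 3 were far apart.

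The nuclease EXO1 (−3.03), the firing factor TICRR (−2.35), the histone chaperone ASF1B (−1.73), the fork repair factor MMS22L (−1.59), RNASEH2B (−1.34), DONSON (−0.95) and the FACT subunits SSRP1 (−0.87) and SUPT16H (−0.43) were also called lower. TICRR had 0, 11 and 18 counts in the abemaciclib libraries, the first of them under the limit of 3 counts. Calls of DONSON, TICRR and MMS22L depended on the setting: DONSON was lost in 5 of the 6 fits that left out a library (adjusted P from 0.0581 to 0.116) with DESeq2 (0.0972) and with no filter (0.0597), TICRR with DESeq2 (0.111), and MMS22L without DMSO replicate 3 (−1.11, adjusted P = 0.167). TONSL (0.99, adjusted P = 0.118, from 3.37 to 6.74 CPM), RAD18 (0.18, adjusted P = 0.588) and RNASEH1 (0.17, adjusted P = 0.508) had the most positive values and were not called. DBF4B, with 1, 7 and 5 counts against 1, 7 and 0, and CHTF8, with 0 counts in every library, were not tested. TOPBP1 (−0.51, adjusted P = 0.0584) was called lower with no filter (−0.50, adjusted P = 0.0392), without DMSO replicate 1 (−0.63, adjusted P = 0.0438) or abemaciclib replicate 2 (−0.81, adjusted P = 0.00626), and CHTF18 (−0.44, adjusted P = 0.275) without abemaciclib replicate 1 (−0.83, adjusted P = 0.0475).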

How the data were processed

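Libraries captured the 3′ ends of mRNA. The authors removed adapters from the single-end reads (BBDuk), used STAR 2.7.5b for alignment to hg38 and featureCounts 2.0.1 for counting over GENCODE genes. The deposited values are raw counts per gene, with no normalization or filter, and 40227 genes had 0 counts in all 6 libraries. The sources used here do not state whether counting used the strand of the reads, and the labels and the paper name different orientations of the library kit. Symbols were matched by Ensembl identifier for 60401 genes. For coordinates and overlaps, a more recent GENCODE annotation of GRCh38 was used.

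Counts were analysed with edgeR 4.0.16 under R 4.3.3 (treatment as the only term, filterByExpr, TMM, glmQLFit and glmQLFTest) and Benjamini–Hochberg adjustment over all genes tested. The SE of a log2 fold change was derived from the F statistic (absolute value over root F). Intervals are at 95%. The steps were tested on simulated data with known changes. DESeq2 1.42.0, other scalings, other filters, the replicate block and the omission of each library were the alternatives. Pairs were compared by exact permutation of the 6 libraries. Members and lists were chosen with earlier results of these data known. All members are named. Values in every library are given for the lowest and highest log2 fold change of each role, for PCNA and for any member called higher. Replicate numbers did not mark shared cultures in the labels, and libraries of one group differed beyond sampling noise (chi-square per degree of freedom 2.82 to 7.27). No molecular identifiers are described, so limits from counts cover counting error only.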

Additional observations from a re-analysis of the deposited data

How the results depend on the processing

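The direction of every called member was the same under every alternative run (DESeq2, DESeq2 size factors, total counts, no filter, at least 10 counts in every library, the replicate block, and the omission of each library, where the member was tested), and 17 of the 21 lower calls were kept in all of them. The exceptions were RFC2, POLD1, POLE2 and CHAF1B, and the POLE3 rise. The number called lower was 20 with DESeq2, 17 of 31 tested with at least 10 counts in every library, 21 with the other scalings or no filter, and 18 to 21 when 1 library was left out. The number called higher was 0 to 1 when 1 library was left out. The members' median was −0.67 with DESeq2 and −0.67 with no filter, where more genes were tested, −0.63 with at least 10 counts, where fewer were, and −0.79 to −0.65 with 1 library left out. For the other fork genes it was −0.51 with DESeq2, −0.50 with no filter, −0.50 with the replicate block and −0.70 to −0.43 with 1 library left out. The replicate block gave 21 members called lower and 1 higher, with a median of −0.72. Over all 10863 genes tested it gave 1280 lower and 1139 higher. It changed no call of a member, and of the other fork genes it lost DONSON (adjusted P = 0.0626). Same-numbered libraries did not deviate together (correlations of −0.0434, 0.00705 and −0.0893), so the numbers were not taken as pairs.

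Signs turned when 1 library was left out in these genes, none of them called: ORC2 (−0.15 to 0.44), ORC3 (−0.37 to 0.42), ORC5 (−0.26 to 0.053), GINS3 (−0.36 to 0.33), POLE4 (−0.48 to 0.038), RPA2 (−0.13 to 0.37), MTBP (−0.91 to 0.16), ATAD5 (−0.33 to 0.048), RNASEH2C (−0.064 to 0.12) and RBBP4 (−0.011 to 0.078). The same held for the ratios ORC6/ORC2 (−0.21 to 0.54), CDC7/DBF4 (−0.49 to 0.36), POLE/POLE4 (−0.40 to 0.042) and RPA2/RPA1 (−0.40 to 0.00017). CDC7/DBF4 was −0.0046 with a pseudocount of 0.1 CPM, and CHAF1A/CHAF1B was −0.051 with one of 2 CPM. In the 4 ratios whose groups did not overlap, the difference kept its sign under every alternative run, but it moved from −1.77 with a pseudocount of 2 CPM to −3.58 with 0.1 CPM for POLD1/POLD4 and from −1.49 to −2.53 for POLE2/POLE3. POLD4 had 2, 0 and 8 counts in the DMSO libraries and POLE2 had 5, 10 and 1 in the abemaciclib libraries. The value added to each CPM weighs most at such low counts. The cause of the differences between groups was not tested. With 3 libraries a group and 3317860 to 4013156 counts in each, genes with few counts have wide intervals.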
